A study of Mus musculus with 8 samples.

Results

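The genes described here are 45 components of Toll-like receptor and NF-kB signalling, measured in RAW264.7, a line of mouse cells that resembles macrophages. They were matched by gene name among the probes of the array, by a rule that uses no measured difference, and each is represented by its brightest probe. The list itself was drawn up with earlier results of these data known. All 45 were found on the array, through 68 probes, and 44 of them were among the 15456 genes whose signal was high enough to test. By role they comprise 13 receptors and receptor partners, 9 adaptors, 10 kinases of the signalling complexes, 5 NF-kB subunits and 8 inhibitors.

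The cells received interleukin-13 (IL-13) together with all-trans retinoic acid (ATRA), IL-13 alone, ATRA alone, or neither (control), in medium with fetal serum that every group shared. Each of the 4 treatments had 1 array at 12 h and 1 array at 24 h, 8 arrays in all, and the labels give no doses. The labels describe the cells given both agents as suppressed in M2 polarization, the IL-13 cells as M2 macrophages, and the ATRA and control cells as unpolarized. RAW264.7 is a transformed line and not a primary macrophage, and nothing in the labels tells whether separate cultures were used, so p-values cover the spread between these arrays alone.

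Toll-like receptors are membrane receptors for microbial lipids, proteins and nucleic acids. Most of them signal through the adaptor MyD88 to kinases of the IRAK family, the ubiquitin ligase TRAF6 and the kinase TAK1, while TLR3 and endosomal TLR4 signal through TRIF. These routes converge on the IkB kinase complex, which marks inhibitory IkB proteins for degradation and so frees NF-kB to enter the nucleus. The cytosolic receptors NOD1 and NOD2 reach the same complex through the kinase RIPK2. NF-kB also drives genes for its own inhibitors, which makes the pathway self-limiting. In macrophages it controls the inflammatory programme, whereas IL-13 acts through STAT6 and ATRA through nuclear retinoic acid receptors.

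Values are Agilent processed signals on the log2 scale after each array was scaled to its 75th percentile. Levels are compared between treatments for 1 probe at a time and never between genes. The 75th percentile before scaling ranged from 431 to 713, and 54.1% to 61.4% of probes were well above background. The differences come from a limma fit with terms for treatment and for time, and genes are called where limma's two-sided p, adjusted by Benjamini-Hochberg over the 15456 genes, was under 0.05. Its residual spread is the disagreement of the treatment differences between 12 h and 24 h. Slide 1 held the 12 h arrays and slide 2 those of 24 h. Time and slide therefore cannot be told apart, while each treatment was compared within a slide. Of 10 macrophage markers 9 were well above background on every array, against 2 of 5 T cell markers (Cd3e and Lck), 1 of 5 fibroblast markers (Col1a2) and 0 of 5 epithelial markers. As checks of the treatments, limma called Mrc1, a marker of IL-13 action, 5.21 log2 units higher with IL-13 (adjusted p = 0.0163) and the retinoic acid receptor gene Rarb 1.81 higher with ATRA (adjusted p = 0.0237), both against control. Mrc1 was 1 of 4 tested genes listed for the response to IL-13, and Rarb 1 of 3 for ATRA. Values of the others are not given here.

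Most members were well expressed. The chosen probe was well above background on all 8 arrays for 41 of 45, on 7 for Nod1, on 6 for Tlr8 and Rel, and on 4 for the flagellin receptor Tlr5. Tlr5 was well above background on 1 of the 2 arrays of each treatment, between 2.10 and 3.79 on the log2 scale, and was not tested. The counts below cover only the 44 that passed this filter, which Tlr8 did through the treated arrays alone. Rel passed it only through the arrays with IL-13, alone or with ATRA.

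The combined treatment called the most members. Between IL-13 with ATRA and control, 4 of 44 members were higher and 3 were lower, where 3.22% of all tested genes were called higher and 5.2% lower. In either direction that was 15.9% of the members and 8.42% of all genes, and an unadjusted p under 0.05 was reached by 21 members (47.7%) and by 28.6% of all genes. ATRA against control called 2 members higher and 0 lower, where 0.893% of genes were higher and 0.88% lower, and 11 of 44 members had an unadjusted p under 0.05, as had 15.1% of all genes. IL-13 against control called 1 member higher and 0 lower, where 0.692% of genes were higher and 0.537% lower, and 18 members (40.9%) had an unadjusted p under 0.05, as had 24.3% of all genes. These 3 comparisons share the control arrays. IL-13 with ATRA against IL-13 called 1 member higher and 2 lower, where 1.11% of genes were higher and 1.48% lower. With 44 members a single call already amounts to 2.27%, so the counts of 1 to 3 rest on that many genes and nothing is read from them about the group.

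The kinase gene Ikbke was the member with the largest differences, and ATRA raised it with or without IL-13. Ikbke encodes IKK-epsilon, a relative of the IkB kinases that acts with TBK1 upstream of IRF3 and interferon genes. Its probe lies at chr1:133151809-133151868 on the minus strand of mm9, the build of the deposited annotation. The 250 bases before its RefSeq start are shown because no other member moved as far. They are given 5′ to 3′ from the minus strand of GRCm38.p6 at chr1:131279564-131279813, and capitals would mark a match to the NF-kB consensus, of which there was none:
Ikbke promoter: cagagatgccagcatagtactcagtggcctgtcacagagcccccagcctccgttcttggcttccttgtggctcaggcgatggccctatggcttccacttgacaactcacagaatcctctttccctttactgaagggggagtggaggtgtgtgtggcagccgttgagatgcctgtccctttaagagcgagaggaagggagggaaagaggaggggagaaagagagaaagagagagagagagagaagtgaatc

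Ikbke had log2 signals of 9.33 at 12 h and 9.21 at 24 h with IL-13 and ATRA, 6.91 and 6.74 with IL-13, 8.49 and 9.01 with ATRA, and 6.20 and 6.35 in control cells. The 4 arrays with ATRA all lay above the 4 arrays without it, and no treatment overlapped another. Ikbke was 7.98-fold higher with IL-13 and ATRA than in control cells (log2 difference 2.996 ± 0.19, SE, adjusted p = 0.00413). It was 5.44-fold higher with IL-13 and ATRA than with IL-13 (2.44 ± 0.19, adjusted p = 0.0131) and 5.56-fold higher with ATRA than in control cells (2.48 ± 0.19, adjusted p = 0.0142). IL-13 alone gave 0.55 against control, which was not called (adjusted p = 0.177). Because arrays are of whole cultures, more cells of a kind and more RNA per cell cannot be told apart, here and for every gene below. The call against control in cells given both agents held without each array in turn. The ATRA call was lost without the control array at 12 h (adjusted p = 0.0847) or 24 h (adjusted p = 0.136) and without the ATRA array at 24 h (adjusted p = 0.0538). The call against IL-13 was lost without either array of the combined treatment (adjusted p = 0.0586 for 12 h and 0.0768 for 24 h) and without the IL-13 array at 24 h (adjusted p = 0.0571).

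**Figure D1:**
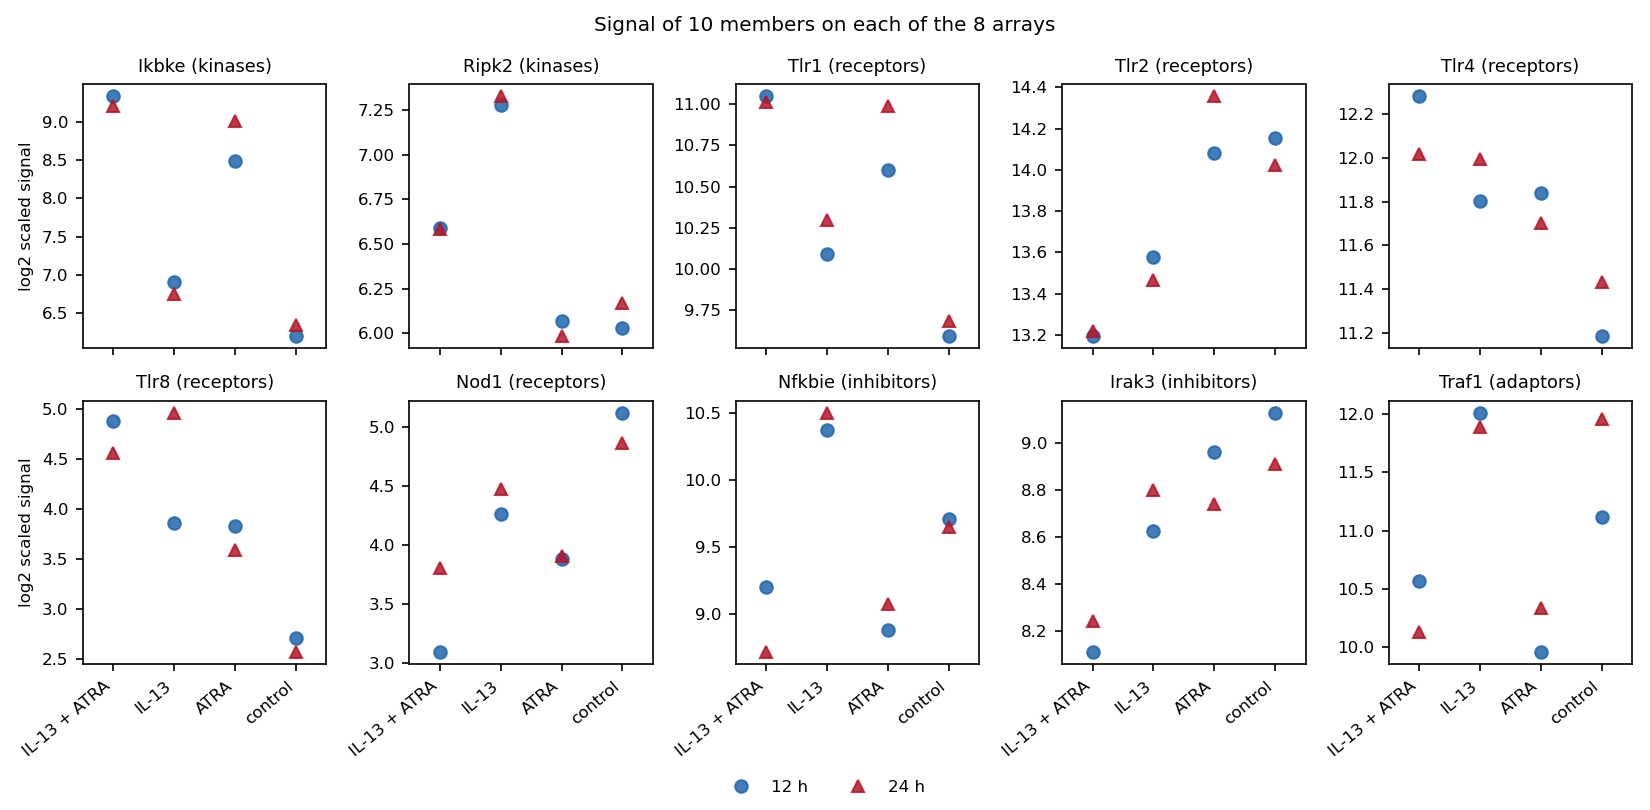
Log2 scaled signal of 10 members on each of the 8 arrays, with 1 panel per gene, treatments on the horizontal axis and circles for 12 h and triangles for 24 h. Ikbke lies between 8.49 and 9.33 on the 4 arrays with ATRA and between 6.20 and 6.91 on the others, while Ripk2 and Nfkbie peak on the IL-13 arrays; each panel has its own vertical scale.

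Ripk2, the kinase that relays signals from NOD1 and NOD2, rose with IL-13, and was lower under the combined treatment than under IL-13. Its signals were 6.59 at 12 h and 6.58 at 24 h with IL-13 and ATRA, 7.28 and 7.33 with IL-13, 6.07 and 5.99 with ATRA, and 6.03 and 6.17 in control cells. Both IL-13 arrays exceeded all others, the arrays of the combined treatment came next, and ATRA and control overlapped. Ripk2 was 2.30-fold higher with IL-13 than in control cells (1.20 ± 0.11, adjusted p = 0.0236), the only member called for IL-13. Against IL-13 it fell by 0.72 log2 units with IL-13 and ATRA (SE 0.11, adjusted p = 0.0453), and against control the combined treatment gave 0.48, which was not called (adjusted p = 0.0605). Without 1 array the IL-13 call was kept only when the IL-13 array at 12 h was left out (adjusted p = 0.0445, against 0.0565 to 0.142 in the other 7 refits), and the call between the combined treatment and IL-13 was lost in all 8 refits (adjusted p = 0.0786 to 0.283). Normexp background correction, which shrinks differences of dim probes, gave 0.76 for IL-13 (adjusted p = 0.0287) and −0.46 between the combined treatment and IL-13 (adjusted p = 0.0947).

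The other 8 kinase genes were not called in any comparison, where 1.23% to 8.42% of all genes were called per treatment comparison. Irak1, which MyD88 recruits, had signals of 12.83 and 12.77 with IL-13 and ATRA, 12.77 and 12.89 with IL-13, 13.07 and 12.92 with ATRA, and 13.05 and 12.81 in control cells, and its treatments overlapped. The distance from the lowest to the highest array was between 0.31 (Irak1) and 1.05 log2 units (Ikbkg, the regulatory subunit NEMO of the IkB kinase complex, which is not itself a kinase). The Ikbkg probe gave 0.04 for the combined treatment against control. The 2 other Ikbkg probes well above background on all 8 arrays gave −0.34 and −0.85. The genes of the IkB kinases Chuk and Ikbkb and of TAK1 (Map3k7) spanned 0.34, 0.40 and 0.32. That of Tbk1, the closest relative of Ikbke, spanned 0.55. Tbk1 gave −0.14 with IL-13 and ATRA (adjusted p = 0.53), 0.01 with IL-13 (adjusted p = 0.97) and −0.13 with ATRA (adjusted p = 0.75), each against control.

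Among the receptors, the bacterial lipopeptide receptor Tlr1 rose under ATRA. Its probe lies at chr5:65316115-65316174 on the minus strand of mm9. The signals of Tlr1 were 11.05 and 11.01 with IL-13 and ATRA, 10.09 and 10.30 with IL-13, 10.60 and 10.99 with ATRA, and 9.60 and 9.69 in control cells. Every treated array exceeded both control arrays, and the 4 arrays with ATRA exceeded the others. Tlr1 was 2.62-fold higher with IL-13 and ATRA than in control cells (1.39 ± 0.14, adjusted p = 0.00933) and 2.23-fold higher with ATRA than in control cells (1.16 ± 0.14, adjusted p = 0.0318). Between the combined treatment and IL-13 it missed the threshold at 0.83 (adjusted p = 0.0501), and IL-13 gave 0.55 against control (adjusted p = 0.12). The ATRA call was lost in all 8 refits without 1 array (adjusted p = 0.0535 to 0.218). The call of the combined treatment was lost without the control array at 12 h (0.0616) or 24 h (0.0708) and without the combined array at 12 h (0.0618) or 24 h (0.0518, all adjusted p).

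Tlr2, the shared partner of TLR1 and TLR6 in binding lipopeptides, moved the other way and fell under the combined treatment. It had 13.20 and 13.22 with IL-13 and ATRA, 13.58 and 13.47 with IL-13, 14.08 and 14.36 with ATRA, and 14.16 and 14.02 in control cells. The 4 arrays with IL-13 lay below the 4 arrays without it, and those of the combined treatment were the lowest. Tlr2 fell by 0.88 log2 units with IL-13 and ATRA against control (SE 0.14, adjusted p = 0.0269), while IL-13 gave −0.57 (adjusted p = 0.119) and ATRA 0.13 (adjusted p = 0.75). Tlr6, the other partner, gave 0.48, 0.38 and 0.34 for the combined treatment, IL-13 and ATRA against control and was not called (adjusted p = 0.109, 0.2 and 0.378). The Tlr2 call was lost without either control array (adjusted p = 0.153 and 0.0996 for 12 h and 24 h) and without either array of the combined treatment (0.142 and 0.148).

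Tlr4, the receptor for lipopolysaccharide, rose with both agents. Its signals were 12.28 and 12.01 with IL-13 and ATRA, 11.80 and 11.99 with IL-13, 11.84 and 11.70 with ATRA, and 11.19 and 11.43 in control cells. All treated arrays exceeded both control arrays, and IL-13 and ATRA overlapped each other. Tlr4 was 1.79-fold higher with IL-13 and ATRA than in control cells (0.84 ± 0.16, adjusted p = 0.0424), with 1.09 at 12 h and 0.58 at 24 h. IL-13 gave 0.59 (adjusted p = 0.135) and ATRA 0.46 (adjusted p = 0.28). A second probe, well above background on 1 of 8 arrays, gave 0.60 for the combined treatment. The call was lost with quantile normalization (adjusted p = 0.057) and with the authors' values (0.0574), and without each array except the IL-13 arrays (0.0845 to 0.212). Ly96, which encodes the TLR4 partner MD-2, gave 0.45, 0.73 and 0.27 for the combined treatment, IL-13 and ATRA against control and was not called (adjusted p = 0.109, 0.0785 and 0.457).

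Tlr8, an endosomal receptor for RNA in humans, was close to background and was not well above it on either control array. It had 4.88 and 4.56 with IL-13 and ATRA, 3.86 and 4.97 with IL-13, 3.83 and 3.59 with ATRA, and 2.71 and 2.57 in control cells, and every treated array exceeded both control arrays. Against the limit that background sets in control cells, Tlr8 was at least 3.27-fold higher with IL-13 and ATRA. It was at least 2.64-fold higher with IL-13 and at least 1.63-fold higher with ATRA. These minimum folds were not tested. The fitted log2 differences were 2.08, 1.77 and 1.07 in the same order (limma adjusted p = 0.0342, 0.0967 and 0.264), and those of IL-13 and of ATRA were not called. Tlr8 passed the filter on dim probes through the treated arrays alone, so its tests against control, and its place among the calls, depend on a filter that a higher signal with treatment decides. The limit is the higher of the probe's own signal and the lowest signal well above background on each array. Normexp correction ended the call of the combined treatment (log2 difference 0.52, adjusted p = 0.0691), and it was kept only in the 2 refits without an IL-13 array (adjusted p up to 0.172 in the others). Leaving out an IL-13 array at either time also brought the ATRA difference under the threshold (adjusted p = 0.0406), and leaving out the one at 12 h brought the IL-13 difference under it (adjusted p = 0.02).

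The cytosolic receptor gene Nod1 fell under the combined treatment, also from a low level. It had 3.09 and 3.81 with IL-13 and ATRA, of which 1 array was well above background, 4.26 and 4.47 with IL-13, 3.88 and 3.91 with ATRA, and 5.13 and 4.87 in control cells. Both control arrays exceeded all others. Nod1 fell by 1.55 log2 units with IL-13 and ATRA against control (SE 0.24, adjusted p = 0.0246), with −2.03 at 12 h and −1.06 at 24 h. This size rests in part on a signal not well above background. ATRA gave −1.10 (adjusted p = 0.104) and IL-13 −0.63 (adjusted p = 0.193). The call was lost without the control array at 12 h (adjusted p = 0.128) or 24 h (0.0713) and without the combined array at 12 h (0.0861), and normexp correction gave −0.24 (0.482). The related receptor gene Nod2, whose values were looked at because it behaved differently at the 2 times, had 5.81 at 12 h and 6.86 at 24 h with IL-13 and ATRA, 6.52 and 6.07 with IL-13, 6.84 and 6.97 with ATRA, and 7.46 and 7.14 in control cells, and no comparison called it.

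The remaining receptor genes, Tlr3, Tlr6, Tlr7, Tlr9, Ly96 and Unc93b1, were not called in any comparison. Tlr7 was the steadiest, with 0.31 log2 units between its lowest and highest array, and Tlr3, the receptor for double-stranded RNA, spanned 1.07. Unc93b1, which carries nucleic acid receptors to endosomes, spanned 0.67. For the combined treatment and IL-13 against control its probe gave −0.04 and −0.25. A second Unc93b1 probe, well above background on all 8 arrays, gave −0.60 and −0.45. Receptors were the role with the most calls under the combined treatment, 3 higher and 2 lower of 12, where 8.42% of all genes were called. An unadjusted p under 0.05 was reached by 10 of the 12 and by 28.6% of all genes. Both receptor counts include Tlr8, which passed the filter through the treated arrays alone. They also include Nod1, whose difference rests in part on a signal not well above background. Their fitted differences had a median log2 difference of −0.13 where all genes had −0.01.

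**Figure D2:**
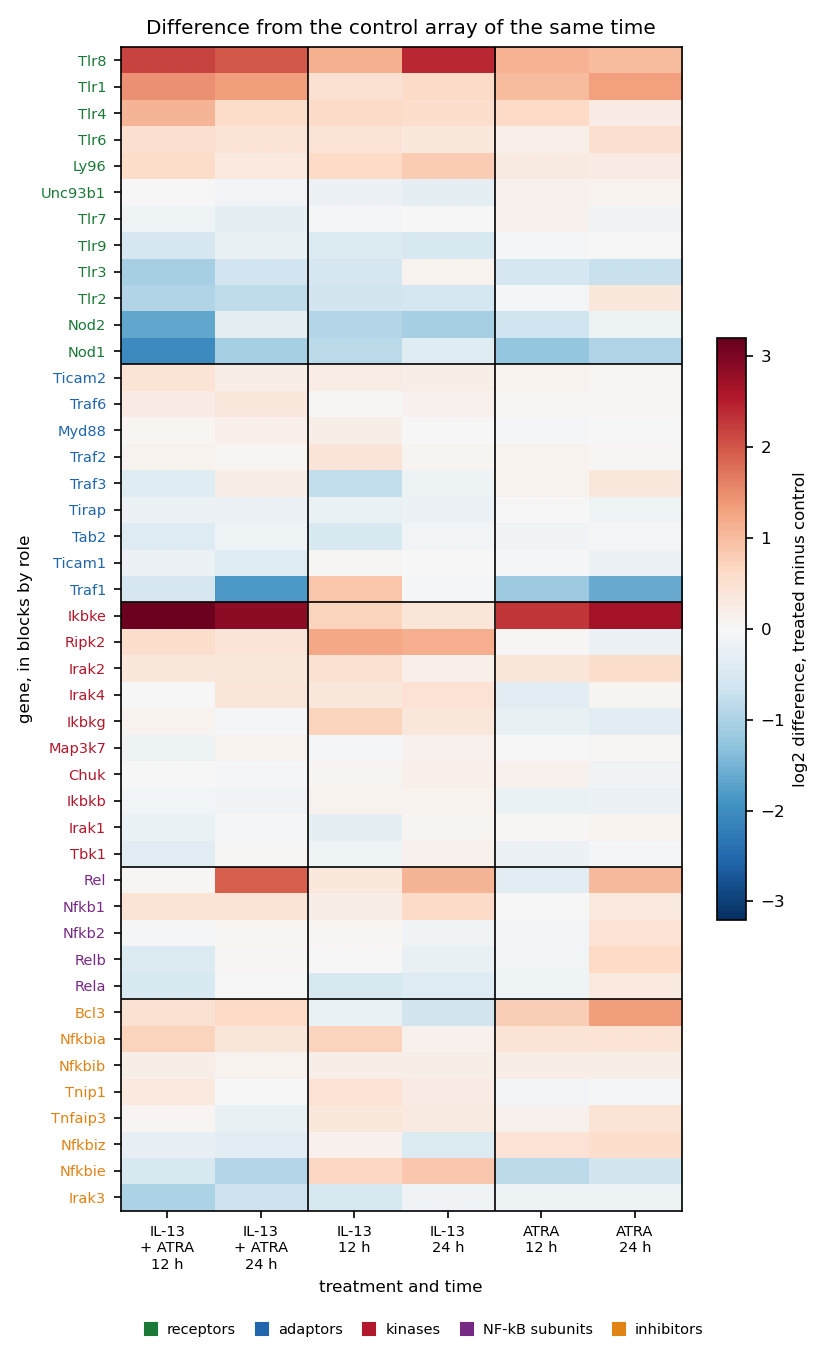
Log2 difference of each of the 44 tested members from the control array of the same time, with red for higher and blue for lower than control, genes in blocks by role and columns for IL-13 with ATRA, IL-13 and ATRA at 12 h and 24 h. Ikbke differs by 3.13 and 2.86 under the combined treatment, and most adaptors and kinases stay near white; the 6 columns share the 2 control arrays.

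None of the 9 adaptor genes was called, where 1.23% to 8.42% of all genes were called per treatment comparison. For the combined treatment against control, 4 of the 9 had an unadjusted limma p under 0.05, as had 28.6% of all genes. For IL-13 and for ATRA against control it was 1 of the 9 each, where 24.3% and 15.1% of all genes had it. From 9 genes, the absence of calls is not read as a result about adaptors. The MyD88 gene was nearly constant, at 12.65 and 12.82 with IL-13 and ATRA, 12.77 and 12.65 with IL-13, 12.53 and 12.69 with ATRA, and 12.58 and 12.67 in control cells. Its treatments overlapped, and its arrays spanned 0.29 log2 units, the least of any member. Tirap, Ticam1 (TRIF), Ticam2, Traf2, Traf6 and Tab2 spanned between 0.38 and 0.48, and Traf3 spanned 0.90. Second probes well above background on all 8 arrays spanned 0.62 for Ticam1, 1.25 for Traf6, 0.33 for Tirap and 0.39 for Tab2. For the combined treatment against control, that of Ticam1 gave −0.49 where the chosen probe gave −0.30.

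Traf1, an adaptor of TNF receptor complexes and itself a gene that NF-kB induces, was the exception by size. It had 10.57 and 10.13 with IL-13 and ATRA, 12.01 and 11.89 with IL-13, 9.96 and 10.34 with ATRA, and 11.12 and 11.96 in control cells. All 4 arrays with ATRA lay below all 4 arrays without it. The difference was −1.60 ± 0.31 between the combined treatment and IL-13 (adjusted p = 0.0722) and −1.39 ± 0.31 between ATRA and control (adjusted p = 0.114), at least 2-fold at both times in each case. Neither was called. The 2 control arrays stood apart, and without the control array at 12 h or 24 h the ATRA difference was −1.84 or −0.94. Normexp correction brought both under the threshold (adjusted p = 0.0301 for the combined treatment against IL-13 and 0.0496 for ATRA against control), and the filter that asks for all 8 arrays did so for the combined treatment against IL-13 (adjusted p = 0.0462).

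The genes of the 5 NF-kB subunits were not called in any comparison. With 1.23% to 8.42% of all genes called per treatment comparison, nothing is read from that about these 5. Rela, the subunit with the activating domain of the classical dimer, had 11.54 and 11.55 with IL-13 and ATRA, 11.54 and 11.15 with IL-13, 11.91 and 11.85 with ATRA, and 12.04 and 11.55 in control cells. The 4 arrays with IL-13, alone or with ATRA, lay at or below 11.55, the level of the lower control array, and both ATRA arrays lay above it. The IL-13 difference of −0.45 was not called (adjusted p = 0.183). A second Rela probe gave −0.43. Nfkb1 gave 0.44 with the combined treatment (adjusted p = 0.13) and 0.41 with IL-13 (adjusted p = 0.185). Its other probes, all well above background on every array, gave 0.17, 0.36 and −0.003 for the combined treatment and 0.57, 0.30 and 0.27 for IL-13. Nfkb2 and Relb, the subunits of the alternative pathway, gave between −0.19 and 0.01 for the combined treatment (adjusted p = 0.656 and 0.97). Rel was close to background on its probe, at 2.31 to 4.23. It passed the filter only through the arrays with IL-13, alone or with ATRA. Its differences from control therefore depend on a filter that a higher signal with IL-13 decides.

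Among the inhibitor genes, Nfkbie was lower under the combined treatment than under IL-13 alone. It encodes IkB-epsilon, an IkB protein that retains NF-kB in the cytoplasm and that NF-kB induces. Its probe lies at chr17:45700000-45700059 on the plus strand of mm9. The promoters of Nfkbie and of Nfkbia, the gene of the prototype inhibitor IkB-alpha, are shown because both hold a match to the NF-kB consensus, in capitals, and the 2 genes differed in response. The match starts 106 bases before the start of Nfkbie, and for Nfkbia it starts 29 bases before the start and reads on the opposite strand. Both are 250 bases from RefSeq on GRCm38.p6, 5′ to 3′, at chr17:45555450-45555699 on the plus strand and chr12:55492648-55492897 on the minus strand:
Nfkbie promoter: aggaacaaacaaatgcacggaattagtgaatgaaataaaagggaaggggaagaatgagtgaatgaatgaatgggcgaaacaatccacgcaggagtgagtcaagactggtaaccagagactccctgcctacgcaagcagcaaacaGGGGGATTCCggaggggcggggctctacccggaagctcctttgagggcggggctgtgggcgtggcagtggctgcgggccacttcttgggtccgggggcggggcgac
Nfkbia promoter: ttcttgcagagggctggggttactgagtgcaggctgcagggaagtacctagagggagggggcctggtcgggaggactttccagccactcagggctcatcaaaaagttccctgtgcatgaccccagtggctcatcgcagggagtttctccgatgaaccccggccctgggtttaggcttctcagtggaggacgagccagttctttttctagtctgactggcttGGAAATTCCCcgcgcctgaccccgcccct

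Nfkbie had 9.20 and 8.72 with IL-13 and ATRA, 10.37 and 10.50 with IL-13, 8.88 and 9.08 with ATRA, and 9.71 and 9.65 in control cells. IL-13 stood above control, and control stood above the 4 arrays with ATRA, with no overlap among these 3 sets. Nfkbie fell by 1.48 log2 units with IL-13 and ATRA against IL-13 (SE 0.19, adjusted p = 0.0313), which is 2.79-fold, with −1.17 at 12 h and −1.79 at 24 h. Against control the combined treatment gave −0.72 (adjusted p = 0.0802), IL-13 0.76 (adjusted p = 0.121) and ATRA −0.70 (adjusted p = 0.17). The call was kept in 1 of 8 refits, without the combined array at 12 h (adjusted p = 0.0495, against 0.0502 to 0.136 in the others).

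Nfkbia behaved differently on the same arrays. It had 15.40 and 15.27 with IL-13 and ATRA, 15.39 and 15.04 with IL-13, 15.11 and 15.34 with ATRA, and 14.68 and 14.90 in control cells, so that every treated array exceeded both control arrays. The differences of 0.55, 0.43 and 0.44 for the combined treatment, IL-13 and ATRA were not called (adjusted p = 0.122, 0.219 and 0.348), and the combined treatment differed from IL-13 by 0.12 (adjusted p = 0.759).

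Irak3, which encodes the IRAK-M protein that restrains MyD88 signalling, fell under the combined treatment. It had 8.11 and 8.24 with IL-13 and ATRA, 8.63 and 8.80 with IL-13, 8.96 and 8.74 with ATRA, and 9.13 and 8.91 in control cells. Both arrays of the combined treatment lay below all others. Irak3 fell by 0.85 log2 units against control (SE 0.15, adjusted p = 0.0344), and its other 2 probes gave −0.68 and −0.45. The mean of its probes ended the call (−0.66, adjusted p = 0.128), and the call was kept only without either IL-13 array (adjusted p = 0.0378, against 0.0662 to 0.189 in the other refits).

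The others placed in the inhibitor role, Nfkbib, Nfkbiz, Bcl3, Tnfaip3 and Tnip1, were not called. Roles were assigned by gene, and inhibition itself was not measured. Bcl3, an atypical IkB protein that can also activate transcription with NF-kB, spanned 2.18 log2 units over the arrays and is named here after its values were seen. It had 11.44 and 10.80 with IL-13 and ATRA, 10.75 and 9.58 with IL-13, 11.75 and 11.49 with ATRA, and 10.96 and 10.16 in control cells. At each time the ATRA array was the highest and the IL-13 array the lowest, and every treatment was lower at 24 h. The ATRA difference was 1.06 against control (adjusted p = 0.0984) and the combined treatment differed from IL-13 by 0.96 (adjusted p = 0.104). Tnfaip3 (A20), a ubiquitin-editing enzyme that shuts the pathway off, spanned 0.68.

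**Figure D3:**
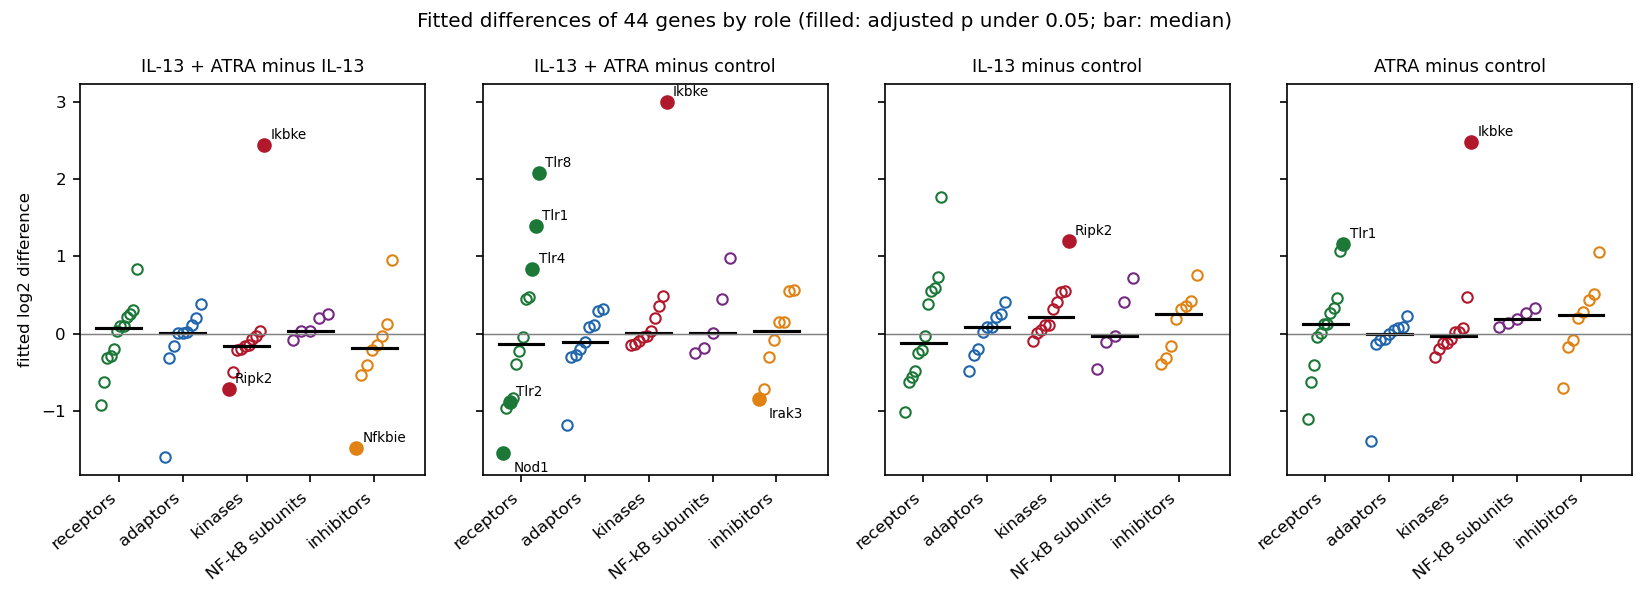
Fitted log2 differences of the 44 tested members in 4 comparisons, grouped by role, with filled points for an adjusted p under 0.05 and a bar at the median of each role. Ikbke, at 2.44 to 2.996 in the comparisons that add ATRA, stands above the other kinases in those 3 panels, and Ripk2 is the other kinase called, at 1.20 for IL-13 and −0.72 for the combined treatment against IL-13; the point of Tlr8 is a fitted value and no measure of its fold, since control cells were at background.

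As a group the members showed little common movement. The median log2 difference of the 44 was −0.03 for the combined treatment, 0.10 for IL-13 and 0.07 for ATRA against control, and −0.03 for the combined treatment against IL-13, where the medians over all genes were −0.01, 0.02, −0.01 and −0.02. By role, the IL-13 medians against control were −0.12 for receptors, 0.09 for adaptors, 0.22 for kinases, −0.03 for NF-kB subunits and 0.25 for inhibitors. A positive sign was found for 9 of 10 kinase genes, with Tbk1 at 0.01, and for 8049 of 15456 genes. That count depends on the probe. The second probes of Chuk, Irak4 and Tbk1 gave −0.13, −0.11 and −0.05, and other probes of Ikbkg gave 0.22, −0.27 and −0.23. For the combined treatment against IL-13 the medians were 0.07, 0.01, −0.15, 0.04 and −0.18 in the same order of roles. At least 2-fold differences the same way at both times were found for 4 members for the combined treatment (Ikbke, Tlr1, Tlr8 and Nod1), where 4.46% of genes met this, 2 members for IL-13 (Ripk2 and Tlr8), where 2.88% did, and 4 for ATRA (Ikbke, Tlr1, Tlr8 and Traf1), where 2.61% did. Tlr8 is counted there by its measured signals, which were not well above background in control cells, and its bound under ATRA, 1.63-fold, does not reach 2-fold. Between the combined treatment and IL-13 there were 3 (Ikbke, Nfkbie and Traf1), where 2.77% of genes met it.

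The sign agreed between 12 h and 24 h for 34 of 44 members for the combined treatment against control (77.27%, where 69.95% of all genes did). It agreed for 35 members for IL-13 (79.55%, where 69.16% did), for 32 for ATRA (72.73%, where 65.11% did) and for 30 for the combined treatment against IL-13 (68.18%, where 64.27% did). Between 24 h and 12 h limma called 0 members and 0.0% of genes, while 4 members (9.09%) and 1875 genes (12.1% of all) had an unadjusted p under 0.05. The 4 members were Bcl3 (−0.72), Unc93b1 (−0.28), Tnip1 (−0.27) and Tbk1 (0.26).

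The ATRA difference could be compared without and with IL-13 on separate arrays, ATRA against control and the combined treatment against IL-13. Across the 44 members, which are not independent replicates, Pearson's r between the 2 differences was 0.898 and Spearman's rho was 0.697, and without Ikbke these were 0.833 and 0.675. Across all genes they were 0.629 and 0.584. The sign was shared by 28 of 44 members (63.64%) and by 71.86% of all genes. The members farthest from 0 in the same direction in both settings were Ikbke, Tlr1 and Bcl3 on the higher side and Traf1, Nod1 and Nfkbie on the lower side.

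The interaction, which asks whether the ATRA difference changed when IL-13 was present, called 0 members by limma, where 0.0194% of genes (3 genes) were called, and 4 members (9.09%) had an unadjusted p under 0.05, where 3.66% of genes had. These were Nfkbie (−0.78 ± 0.27), Tnfaip3 (−0.68 ± 0.24), Ripk2 (−0.64 ± 0.16) and Ly96 (−0.55 ± 0.19). The interaction was negative for 32 of 44 members, among them all 10 kinase genes and all 8 inhibitor genes, and for 8091 of 15456 genes. Ikbkb (−0.008), Tbk1 (−0.026) and Ikbke (−0.031) were near 0 and changed sign in 2, 5 and 5 of 15 alternatives and refits. Irak4 changed sign in 5, Irak1 in 3, Bcl3 in 2 and Chuk in 1. The other kinase and inhibitor genes stayed negative. The kinase count also depends on the probe, since second probes of Irak1, Chuk, Irak4 and Tbk1 gave a positive interaction. They gave 0.30, 0.21, −0.15 and −0.18 for the combined treatment against IL-13. For ATRA against control they gave 0.04, 0.01, −0.29 and −0.24. The third Irak1 probe stayed negative, as did the other probes of Ikbkg and Irak3 well above background on all 8 arrays. The median of the members was −0.14 and that of all genes −0.01.

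**Figure D4:**
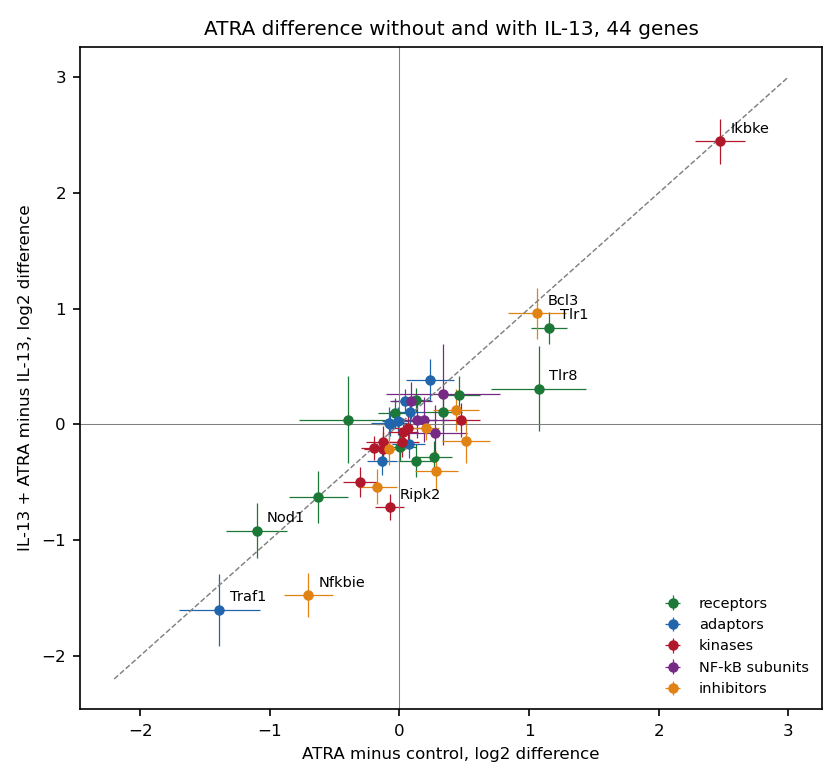
Log2 difference of IL-13 with ATRA minus IL-13 (vertical axis) against ATRA minus control (horizontal axis) for the 44 tested members, coloured by role, with bars for limma's standard error and a dashed line where both are equal. Ikbke lies on the line at 2.44 and 2.48, Traf1 at −1.60 and −1.39, and Nfkbie and Ripk2 lie below the line, at −1.48 and −0.70 and at −0.72 and −0.08.

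Of 39 further genes of these pathways, 35 were tested. IL-13 against control called 1 higher and 0 lower (2.86%, where 1.23% of all genes were called). The combined treatment against control called 1 higher and 1 lower (5.71%, where 8.42% of all genes were called). Nothing is read from these counts about the group. Traf5, an adaptor of TNF receptor family members, was higher under the combined treatment (0.64, adjusted p = 0.0434) and under IL-13 (1.03 ± 0.13, adjusted p = 0.0371) than in control cells. Map3k14, the kinase NIK of the alternative NF-kB pathway, fell by 0.56 under the combined treatment against control (adjusted p = 0.0389). ATRA against control and the combined treatment against IL-13 called 0 of these 35 genes, where 1.77% and 2.59% of all genes were called. An unadjusted limma p under 0.05 was reached by 3 and 8 of them, and by 15.1% and 19.1% of all genes. Card9 was not found by name, and Lbp, Sarm1 and Peli3 had no probe that passed the filter.

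Known target genes of NF-kB moved in both directions under the combined treatment. Of 35 listed, besides the members Traf1 and Nfkbia, 24 were tested, and the combined treatment against control called 4 higher and 2 lower, where 3.22% of all genes were called higher and 5.2% lower. Those higher were the chemokine genes Ccl4 (2.53 ± 0.45, adjusted p = 0.0338) and Ccl3 (1.87, adjusted p = 0.0428), Ier3 (2.22, adjusted p = 0.021) and the costimulatory receptor Cd40 (1.90 ± 0.19, adjusted p = 0.00936). Those lower were the chemokine genes Cxcl10 (−2.70 ± 0.35, adjusted p = 0.0169) and Cxcl16 (−1.49, adjusted p = 0.0276). Cxcl16 was also lower under the combined treatment than under IL-13 (−1.49, adjusted p = 0.0482), the only target called there, where 2.59% of all genes were called. IL-13 and ATRA against control each called 0 targets, where 1.23% and 1.77% of all genes were called. An unadjusted limma p under 0.05 was reached by 9 and 12 of the 24, and by 24.3% and 15.1% of all genes. The cytokine and effector genes Il1a, Il6, Il12b, Cxcl1, Vcam1, Nos2, Lcn2, Csf2, Csf3 and Ccl22 were too dim on every probe to be tested, and Bcl2a1a was not found by name.

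Promoter sequences were in the RefSeq table for 35 of the 45 members, with 48 starts. In the 250 bases before the start, on both strands, the NF-kB consensus was found in 14 of the 48 (29.2%), against 7.25% of 32841 RefSeq promoters. The 11 members with it were Irak1, Map3k7, Nfkb2, Nfkbia, Nfkbie, Rel, Tlr2, Tlr3, Tnfaip3, Tnip1 and Traf3. Of these, Tlr2 was called for the combined treatment against control, as were 15.9% of members and 8.42% of all genes. Nfkbie was called for the combined treatment against IL-13, as were 6.82% of members and 2.59% of all genes. Nothing is read from these 2 genes about members with a match. The core sequence of retinoic acid receptor sites, AGGTCA, was found in 7 of 48 (14.6%, against 14.0% of all), and its repeat with a gap, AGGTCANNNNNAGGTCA, in 0 (against 0.009%). The STAT6 motif TTCNNNNGAA was in 3 of 48 (6.25%, against 5.85% of all), at Ikbkg, Tlr8 and Tnfaip3. A match is a run of letters and no evidence of binding, and these windows leave out distal elements.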

How the data were processed

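Total RNA was labelled with Cy3 and hybridized to 8 one-colour Agilent whole mouse genome arrays, per the labels. Per the file headers, the authors used Feature Extraction, which subtracted background and removed spatial trends, and deposited the processed signal as an intensity with no normalization between arrays. The flags for signal well above background, saturation and outlying spots, deposited as other values of 0 or 1 per the file headers, were read as well. The authors also deposited a table on a log2 scale, whose columns share the minimum 0.752 and the maximum 18.2 and follow the rank order of the processed signals of their own array (Spearman correlation at least 0.999996); how it was made is not given in the sources used here, and it served as an alternative.

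Outlying spots were removed and repeated spots averaged (43379 spots of 41174 probes, 49 probes with a missing value, 0 saturated). The log2 signals were scaled to each array's 75th percentile. A probe was kept (24043 were) if some treatment had it well above background on both of its arrays. Members were matched by the gene name in the files, other probes through RefSeq accessions (27611), symbols (5578) or synonyms (471), and 7446 kept the name in the files. The brightest probe stood for each gene. Fits used limma 3.58.1 in R 4.3.3, with treatment and time as terms and 3 residual degrees of freedom, and were tested on simulated data. With 2 arrays per treatment, the number of arrays limits the precision. The members and gene lists were chosen with earlier results of these data known. The count for 1 marker list is not reported here. Values on every array are given for members that were called, that moved 2-fold or more in 1 direction at 12 h and at 24 h, or that were the brightest of their role. Of the other lists, up to 5 called genes per comparison are named, those with the largest differences; for the targets of NF-kB under the combined treatment all 6 are named, so that the count is complete. Alternatives were normexp correction, quantile normalization, the authors' values, no filter and a stricter filter on dim probes, no time term, the mean of a gene's probes, and leaving out each array. Positions of probes are those of mm9, the build of the deposited annotation; promoters are from RefSeq on GRCm38.p6.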

Additional observations from a re-analysis of the deposited data

Results flagged for a closer look

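The difference of Nod2 between the combined treatment (IL-13 with ATRA) and IL-13 alone ran in opposite directions at the 2 times, −0.711 log2 units at 12 h and 0.793 at 24 h. Each value is the difference of 2 arrays, and the difference between the times was not tested. Over both times limma gave 0.04 (adjusted p = 0.971). On the combined arrays Nod2 had 5.81 at 12 h and 6.86 at 24 h, against 6.52 and 6.07 on the IL-13 arrays, and its probe was well above background on all 8 arrays.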

How the results depend on the processing

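Over the 4 treatment comparisons and the alternatives that gave a value, 120 of the 176 member differences kept their sign throughout, the 13 called ones among them, and 56 changed sign at least once. The largest of those 56 was Traf1 between IL-13 and control, at 0.42. Of the 163 differences not called, 10 were called under some alternative, namely those of Bcl3 and Traf1 for ATRA, of Ripk2, Ticam2 and Traf1 for the combined treatment against control, of Bcl3, Tlr1 and Traf1 for the combined treatment against IL-13, and of Tlr8 for ATRA and for IL-13. With no filter on dim probes, which raised the genes tested to 27343, the members called fell to 0 for IL-13, 0 for ATRA, 1 for the combined treatment (Ikbke) against control and 0 for the combined treatment against IL-13, and the genes called over all genes to 1, 0, 35 and 7, with 0 for the interaction. Normexp correction called 4 members for ATRA and 5 for the combined treatment against IL-13, and the stricter filter, under which Tlr8 and Nod1 were not tested, called 5 members in the combined treatment against IL-13 and 426 genes for ATRA, against 274 genes in the fit reported. The interaction over all genes, 3 genes, gave 0 with the stricter filter and 1 with no time term, which gives no value for 24 h against 12 h. Leaving out 1 array gave 0 to 2 members for IL-13, 0 to 2 for ATRA, 1 to 7 for the combined treatment against control and 0 to 1 for the combined treatment against IL-13. Over all genes the same refits gave 2 to 340 genes for IL-13 (190 with all arrays), 1 to 177 for ATRA, 104 to 1414 for the combined treatment against control (1301), 15 to 534 for the combined treatment against IL-13 (401) and 0 to 10 for the interaction. A treatment left with 1 array is assumed to vary like the others. The call of Ikbke under the combined treatment against control held under all 7 alternatives and all 8 refits (adjusted p = 0.00125 to 0.0496). The cause of the other changes was not tested. Signals near background limit the values of Tlr8, Nod1, Rel and Tlr5. The time term sets arrays of the same time and slide against each other, and without it 1, 2 and 7 members were called for IL-13, ATRA and the combined treatment against control and 3 for the combined treatment against IL-13, the same counts as with it.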
